A study of Mus musculus with 12 samples.

Results

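The antioxidant and NRF2 target enzymes were followed through the transcriptomes of FL MycER cells. The 10 genes were Sod1, Sod2, Cat, Gpx1, Gpx4, Prdx3, Txnrd1, Gclc, Gclm and Hmox1, chosen by name as enzymes that clear superoxide and peroxide or that belong to the thioredoxin, glutathione and heme arms of the NRF2 programme. They were 10 of the 21671 genes in the deposited table, and all 10 were among the 9745 genes that passed the filter on low values and were tested.

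Superoxide that escapes from the respiratory chain is converted to hydrogen peroxide by the superoxide dismutases SOD1, in the cytosol, and SOD2, in the mitochondrial matrix. Hydrogen peroxide is then removed by catalase (Cat) in peroxisomes, by glutathione peroxidases and by peroxiredoxins, which draw their reducing power from glutathione and from thioredoxin. The transcription factor NRF2, encoded by Nfe2l2, is held back by KEAP1 and, once released by oxidants, binds antioxidant response elements in genes such as Gclc, Gclm, Txnrd1 and Hmox1.

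FL MycER cells derive from FL5.12, a BALB/c mouse prolymphocytic line that depends on IL-3, and carry a retroviral MycER fusion, kept by antibiotic selection, whose MYC activity is switched on by 4-hydroxytamoxifen (OHT). All 4 conditions carried MycER. They were untreated cells, cells given 100 nM OHT for 72 h (OHT), cells given 135 nM of IACS-010759, an inhibitor of complex I of the respiratory chain, for 24 h (IACS), and cells primed with 100 nM OHT for 48 h and then given 135 nM IACS-010759 for 24 h with OHT still present (OHT_IACS), so that OHT lasted 72 h in all. Each condition had 3 biological replicates, and per the study's methods cells were passaged in reduced glucose before IACS-010759; whether the untreated cells received a vehicle was not given in the sources used here. The comparisons ask what MYC activation and complex I inhibition, alone and together, do to the expression of these enzymes.

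The library totals by which RPKM (reads per kilobase of gene, relative to the library total) had been divided ran from 10376530 to 14550158, and the members had from 224 reads (Hmox1) to 1780 reads (Txnrd1) in a library. The smallest totals were those of OHT replicates 1 and 3, at 0.776 and 0.805 of that of untreated replicate 1. The B-lineage markers Pax5, Il7r, Rag1, Dntt and Blnk were at 0 in every library, while Cd79b reached an RPKM of 1 in all of them, so the prolymphocytic label rests on no full B-lineage profile, whereas Csf2rb, a chain of the IL-3 receptor, stood between 39.8 and 48.5 RPKM. Fibroblast markers summed to at most 0.343 RPKM and T-cell markers to at most 2.37 RPKM in a library. Of the erythroid markers, Gata1 stood between 26.0 and 32.9 RPKM and Klf1 between 4.92 and 13.7 RPKM. The erythroid markers did not move alike at a limma adjusted p under 0.05. Of 4 tested, 2 rose and 1 fell with OHT, where 18.2% of all genes rose and 18.2% fell. With IACS 1 rose and 1 fell, where 8.15% of all genes rose and 7.74% fell. Klf1, an erythroid transcription factor, fell with OHT (log2 fold change -0.498, limma adjusted p = 2.65e-05) and with IACS (-0.954, limma adjusted p = 2.19e-07). Gata1 rose with OHT (0.226, limma adjusted p = 0.00386). Hbb-b1, at only 0.712 to 2.40 RPKM over the libraries, rose with OHT (0.684, limma adjusted p = 0.00879) and with IACS (0.669, limma adjusted p = 0.021).

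In GENCODE vM21 (GRCm38), the members lie on 8 chromosomes. Cat is at chr2:103453849-103485160 on the minus strand, Hmox1 at chr8:75093621-75100589 on the plus strand and Gclc at chr9:77754535-77794485 on the plus strand. No other annotated gene overlaps 7 of the 10 members. An exon of Sod1 is overlapped by Scaf4 on the opposite strand, and exons of Gclm are overlapped by the pseudogene Gm6061 on the same strand and by Gm17494 on the opposite strand; the 3 genes that overlap Txnrd1 lie over none of its exons. The libraries were stranded, but the strand setting of the counting was not given in the sources used here.

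RefSeq promoter windows (GRCm38.p6, 250 bases before to 50 bases after a start) were at hand for 8 of the 10 members, with 13 windows in all, and not for Gclc and Hmox1. An antioxidant response element, searched as TGACNNNGC on both strands, was found in 3 of these 13 windows, 1 each of Gclm, Txnrd1 and Sod1, and in 12.4% of the 32851 windows of all genes. The stretches that hold it are shown because the element is the binding motif by which NRF2 is known to reach its targets, with the element in capitals, in each case on the reverse strand. They lie at chr3:122245393-122245461 (Gclm), chr10:82859084-82859152 (Txnrd1, at 1 of its 3 starts) and chr16:90220676-90220744 (Sod1), all on the plus strand, and the element begins 134, 92 and 56 bases before the start, respectively.
Gclm: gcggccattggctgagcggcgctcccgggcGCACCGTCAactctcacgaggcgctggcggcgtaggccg
Txnrd1: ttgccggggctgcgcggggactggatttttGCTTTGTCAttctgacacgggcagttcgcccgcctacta
Sod1: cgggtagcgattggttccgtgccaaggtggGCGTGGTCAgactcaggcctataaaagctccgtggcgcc

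The E-box CACGTG, the motif of MYC, was in none of the members' windows and in 7.15% of all windows, and the ATF4 composite site, searched as TGATGNAA on both strands, was in none and in 3.97%. These matches describe the letters of the windows only.

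All 10 genes were expressed in untreated cells, and the highest mean level per length was 6.04 times the lowest. Gpx1 was highest at 69.2 ± 2.59 RPKM (SD, n = 3), followed by Prdx3 (55.1 ± 1.26), Sod1 (49.5 ± 2.66), Gclm (38.0 ± 0.965), Gpx4 (37.7 ± 1.75), Txnrd1 (30.4 ± 0.748), Cat (18.2 ± 0.508), Gclc (15.8 ± 0.0274), Sod2 (12.3 ± 0.481) and Hmox1 (11.4 ± 1.22). In this order of levels, Gclm and Gpx4 overlapped between libraries, as did Sod2 and Hmox1, and every other pair of neighbours was apart. The first 6 places were the same in all 4 conditions, and the changes of order were among Cat, Gclc, Hmox1 and Sod2. With OHT, Gclc (19.6 RPKM) and Hmox1 (17.4) passed Cat (16.2), although the libraries of Hmox1 and Cat overlapped. With OHT_IACS, Cat was again seventh at 24.7 RPKM and Sod2 was last at 12.2. The ratio of the highest to the lowest mean of the 4 conditions was 1.71 for Hmox1, 1.53 for Cat and 1.34 for Gclc, and lay between 1.04 (Txnrd1) and 1.21 (Sod1) for the other 7.

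**Figure D1:**
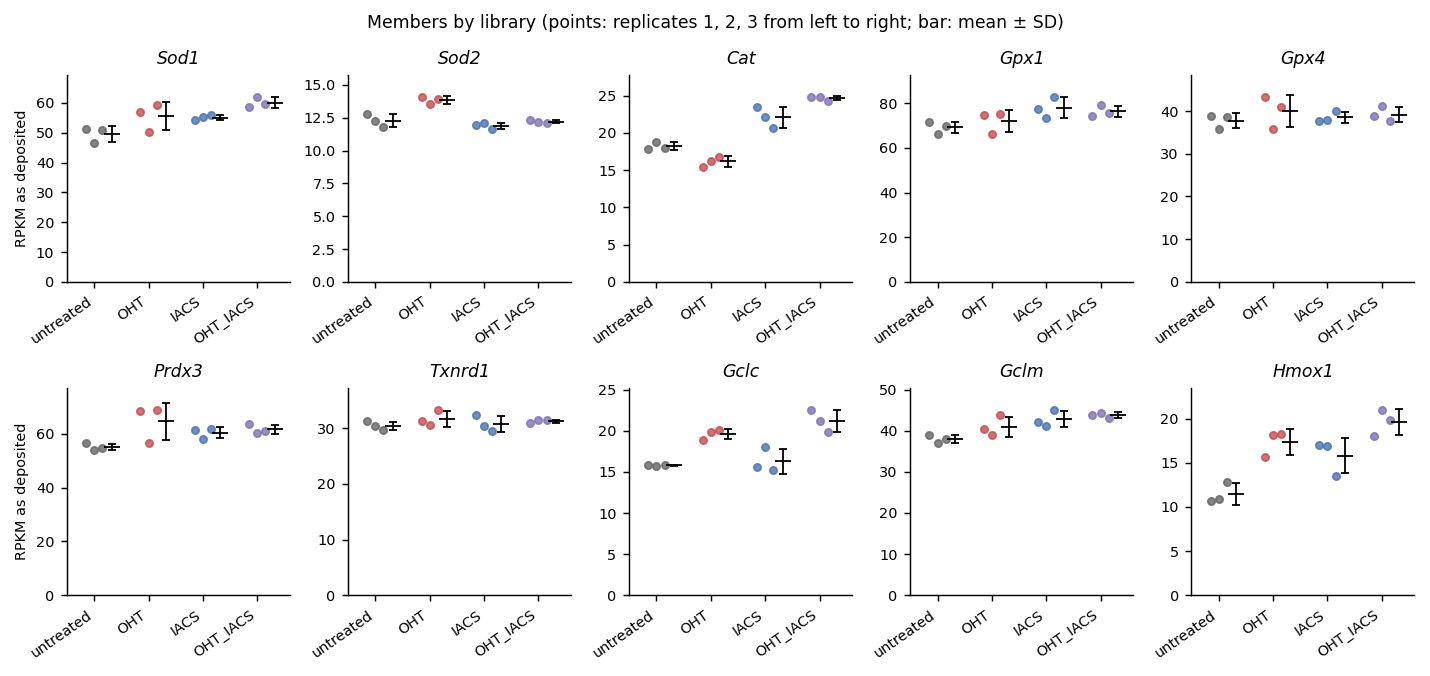
Level of each member in RPKM as deposited (vertical axis, from 0) in the 4 conditions (horizontal axis). Points are the 3 replicates, and bars give their mean ± SD; Cat ran from a mean of 16.2 with OHT to 24.7 with OHT_IACS, whereas Txnrd1 stayed between 30.4 and 31.7.

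The conditions were compared on the log2(RPKM + 0.1) scale with limma, all 12 libraries entering the fit, and a gene is given as changed where its Benjamini-Hochberg adjusted p over all 9745 genes was under 0.05. With OHT, 4 of the 10 members changed against untreated cells, 3 higher (Hmox1, Gclc, Sod2) and 1 lower (Cat), where 36.4% of all genes changed, 18.2% higher and 18.2% lower. With IACS against untreated cells 2 members rose (Cat and Hmox1) and none fell, where 15.9% of all genes changed, 8.15% higher and 7.74% lower, and at an unadjusted p under 0.05 there were 3 higher and none lower in limma; limma voom on the recovered reads called the same 2. With OHT_IACS against OHT, Cat rose and Sod2 fell, where 23.7% of all genes changed, 11.9% higher and 11.8% lower. With OHT_IACS against IACS, 3 members rose (Cat, Gclc and Hmox1) and none fell, where 26.5% of all genes changed, 12.3% higher and 14.2% lower. None fell either at an unadjusted p under 0.05 in limma or with limma voom. With the library total as a covariate, however, Gpx1 was called lower with OHT_IACS against IACS (limma adjusted p = 0.0317). The share of members changed was thus near that of all genes in each comparison. After scaling, the libraries of the groups did not overlap for 4 members with OHT against untreated cells (46.0% of all genes), 4 with IACS against untreated cells (38.6%), 5 with OHT_IACS against OHT (36.9%) and 5 with OHT_IACS against IACS (42.3%). Levels of single genes and overlaps of their libraries below are on RPKM as deposited. Fold changes, intervals and adjusted p-values are from the fit on scaled values unless another setting is named. The comparisons share libraries (untreated, OHT, IACS or OHT_IACS), so the same library enters several of them.

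**Figure D2:**
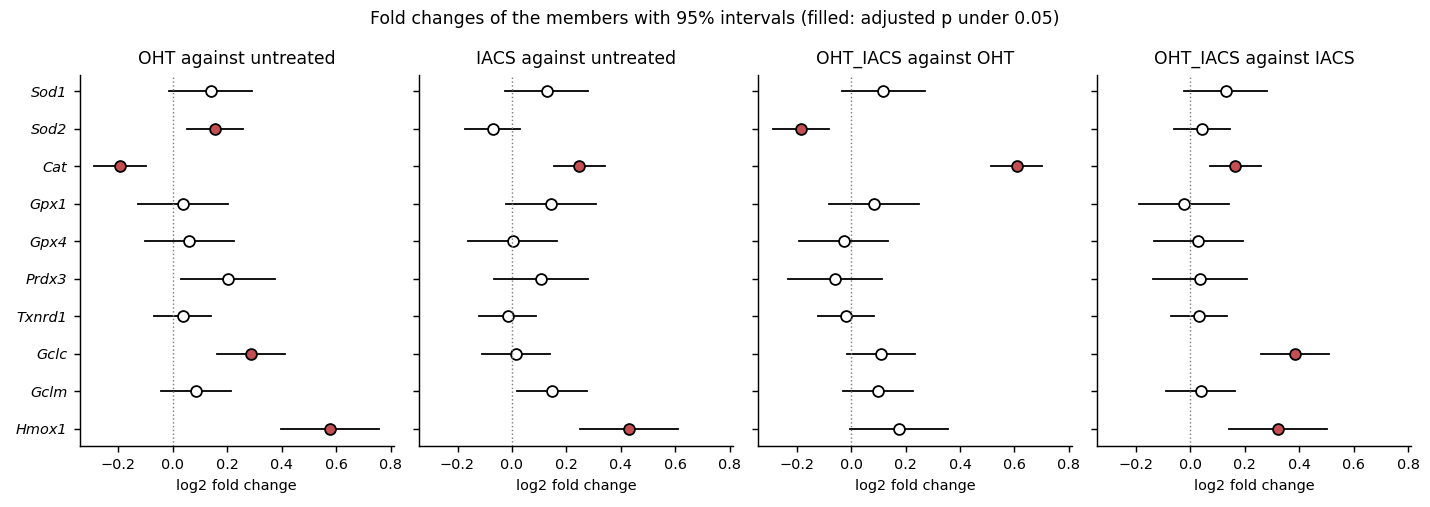
Log2 fold change of each member (horizontal axis) with its 95% interval from limma in the 4 comparisons, one per panel. Filled points passed an adjusted p of 0.05; Cat lay at -0.195 with OHT and at 0.608 with OHT_IACS against OHT, whereas the intervals of Txnrd1 included 0 in every panel.

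Catalase responded to both treatments, and in opposite directions. Cat, the peroxisomal enzyme that splits hydrogen peroxide, stood at 17.9, 18.8 and 18.0 RPKM in the 3 untreated libraries and at 15.5, 16.2 and 16.8 with OHT. Every OHT library was thus below every untreated library, with a log2 fold change of -0.195 (95% interval -0.289 to -0.1, limma adjusted p = 0.00374). In bulk RNA, fewer cells with a transcript and less of it per cell cannot be told apart, here and below. With IACS the Cat level was 23.5, 22.1 and 20.7 RPKM, above every untreated library, with a log2 fold change of 0.247 (0.153 to 0.342, limma adjusted p = 0.00219). With OHT_IACS it was 24.8, 24.8 and 24.3 RPKM, the highest of the 4 conditions, 0.608 above OHT (0.514 to 0.702, limma adjusted p = 1.01e-06), a 1.52-fold rise. It was also 0.166 above IACS on the log2 scale (0.072 to 0.26, limma adjusted p = 0.0129), so that OHT went with a lower Cat level in the absence of IACS-010759 and with a higher one in its presence.

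The response of Cat to IACS-010759 was larger in OHT-primed than in nonprimed cells. The difference between the responses, tested as the interaction in the same fit, was 0.361 on the log2 scale (SE 0.062, 95% interval 0.228 to 0.494, limma adjusted p = 0.0445). Cat was the only member past the threshold for this difference, where 14 genes (0.144% of those tested) were. The size of the difference lay between 0.333 and 0.395 in the 23 alternative analyses that gave one, but the adjusted p was under 0.05 in 7 of the 23 and reached 0.243. It was 0.21 with RPKM as deposited and 0.123 without untreated replicate 2. For the other 9 members the difference ran from -0.255 (Hmox1, 95% interval -0.51 to 0.0, limma adjusted p = 0.393) to 0.096 (Gclc, -0.08 to 0.273, limma adjusted p = 0.642).

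**Figure D3:**
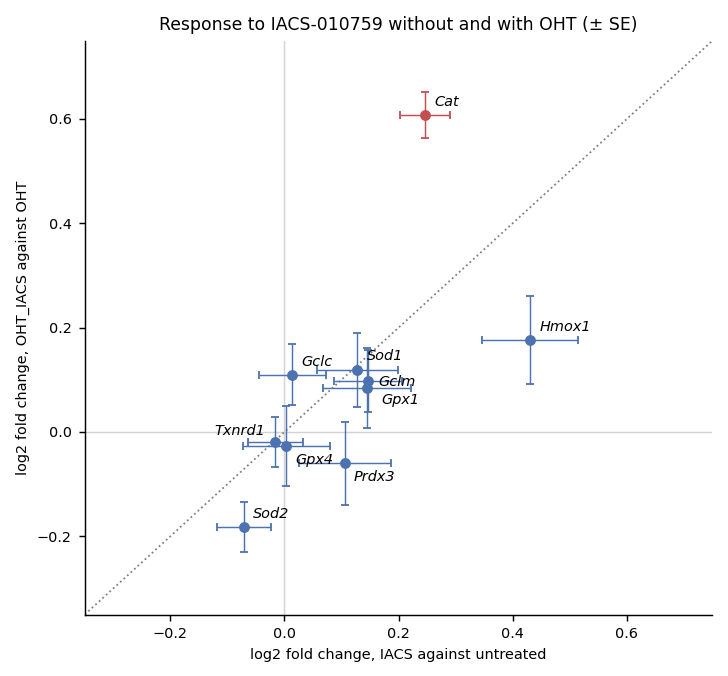
Log2 fold change of each member with IACS-010759 in nonprimed cells (IACS against untreated, horizontal axis) and in OHT-primed cells (OHT_IACS against OHT, vertical axis), with SE from limma. On the dotted line both responses are equal; Cat, in red, lies above it at 0.247 and 0.608, and Hmox1 below it at 0.431 and 0.176.

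Among markers of other cell types, the summed level of the myeloid list followed Cat in its order of conditions only through Gzmb. The summed RPKM of the 9 genes of this list was 58.2 to 60.2 in untreated cells, 33.1 to 38.2 with OHT, 65.6 to 74.1 with IACS and 69.7 to 78.5 with OHT_IACS. None of the 9 was at 0 in every library, 4 of the 9 reached an RPKM of 1 in every library, Elane was at a median of 0 and Csf1r at no more than 0.107 RPKM. Gzmb made up 15.04 to 16.9 RPKM of this sum with OHT and 44.0 to 50.9 with OHT_IACS. Without it the other 8 summed to 37.1 to 37.7 RPKM in untreated cells, 18.0 to 21.3 with OHT, 33.7 to 40.2 with IACS and 25.7 to 27.8 with OHT_IACS, so that OHT_IACS lay below IACS, unlike Cat. Of the 5 genes of this list that were tested, all 5 fell with OHT, where 18.2% of all genes fell. Gzmb alone rose with IACS, where 8.15% of all genes rose. With OHT_IACS against OHT 3 rose, where 11.9% of all genes rose. With OHT_IACS against IACS Gzmb and Cfp rose whereas Hk3, Lyz2 and Mpo fell, where 12.3% of all genes rose and 14.2% fell. For the interaction, Gzmb, Hk3 and Cfp passed the threshold as higher, where 0.144% of all genes did. The list was chosen with earlier results of these data known, so these counts give no independent support. The part of these genes in the Cat result was not tested. The genes whose pattern over the 12 libraries was most like that of Cat were Gzmb, which encodes granzyme B and is itself among those 9 genes (Pearson r = 0.98), and A130040M12Rik (r = 0.969).

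Hmox1, the inducible heme oxygenase that breaks heme down to biliverdin, iron and carbon monoxide, had the largest rise of the members with OHT. It stood at 10.6, 10.9 and 12.8 RPKM in untreated cells and at 15.7, 18.2 and 18.3 with OHT. No OHT library overlapped an untreated one, and the log2 fold change was 0.577 (95% interval 0.397 to 0.758, limma adjusted p = 0.00015), a 1.49-fold rise. With IACS alone the Hmox1 level was 17.0, 16.9 and 13.5 RPKM, of which the lowest, replicate 3, was close to the highest untreated library. The log2 fold change was 0.431 (0.25 to 0.611, limma adjusted p = 0.00394). With OHT_IACS it was 18.1, 21.0 and 19.8 RPKM, which overlapped with OHT alone (log2 fold change 0.176, -0.005 to 0.356, limma adjusted p = 0.145) and lay above all 3 IACS libraries (0.322, 0.142 to 0.503, limma adjusted p = 0.012). Hmox1 was thus higher with either treatment than without, and the step from a single treatment to both passed the test against IACS and not against OHT. The calls with OHT and with IACS against untreated cells held in all 24 alternatives, with log2 fold changes of 0.53 to 0.74 and of 0.384 to 0.523, respectively.

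The catalytic and the modifier subunit of glutamate-cysteine ligase, the rate-limiting enzyme of glutathione synthesis, differed in which tests they passed. The catalytic subunit Gclc stood at 15.8 RPKM in each of the 3 untreated libraries and at 18.9, 19.9 and 20.1 with OHT, a log2 fold change of 0.287 (95% interval 0.162 to 0.412, limma adjusted p = 0.00182). With IACS it was 15.6, 18.1 and 15.3 RPKM, on both sides of the untreated level (0.014, -0.111 to 0.139, limma adjusted p = 0.897). With OHT_IACS it was 22.5, 21.2 and 19.9 RPKM, above all 3 IACS libraries (0.384, 0.259 to 0.509, limma adjusted p = 0.000323) and not past the threshold against OHT (0.11, -0.015 to 0.235, limma adjusted p = 0.184). Gclc was thus higher in both conditions that held OHT. The modifier subunit Gclm stood at 38.9, 36.9 and 38.1 RPKM in untreated cells, at 40.3, 38.9 and 43.7 with OHT, at 42.2, 41.3 and 45.0 with IACS and at 43.8, 44.4 and 43.1 with OHT_IACS. Its 3 IACS libraries lay above the 3 untreated ones, but no comparison passed the threshold, the nearest being IACS against untreated (0.146, 0.018 to 0.275, limma adjusted p = 0.115). The ratio of Gclc to Gclm levels in RPKM was 0.416 ± 0.01 (SD, n = 3) in untreated cells, 0.48 ± 0.028 with OHT, 0.382 ± 0.05 with IACS and 0.484 ± 0.028 with OHT_IACS. This ratio was calculated after the values had been seen and was not tested; the lowest ratio with OHT was 0.459 and the highest in untreated cells was 0.427.

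Of the superoxide dismutases, the mitochondrial one passed the threshold in some comparisons and the cytosolic one in none; a difference between the genes was not tested. Sod2 stood at 12.8, 12.3 and 11.8 RPKM in untreated cells and at 14.1, 13.6 and 14.0 with OHT, so that no library of these conditions overlapped (log2 fold change 0.154, 95% interval 0.051 to 0.257, limma adjusted p = 0.0227). With IACS it was 11.95, 12.09 and 11.65 RPKM, within or just under the untreated range (-0.071, -0.174 to 0.031, limma adjusted p = 0.342). With OHT_IACS it was 12.3, 12.2 and 12.1 RPKM, below every OHT library (-0.183, -0.286 to -0.08, limma adjusted p = 0.015). The OHT_IACS libraries lay within the untreated range and just above the 3 IACS libraries (0.042, -0.06 to 0.145, limma adjusted p = 0.561). The interaction of Sod2 did not pass the threshold (-0.112, -0.257 to 0.034, limma adjusted p = 0.511). The Sod2 rise with OHT was among the less firm calls and was held in 18 of 24 alternatives. With the library total as a covariate its log2 fold change was 0.099 (limma adjusted p = 0.245). Sod1 stood at 51.2, 46.5 and 50.9 RPKM in untreated cells, at 57.1, 50.2 and 59.2 with OHT, at 54.2, 55.2 and 56.0 with IACS and at 58.6, 62.1 and 59.5 with OHT_IACS. The 3 IACS libraries were above the 3 untreated ones and below the 3 OHT_IACS ones, but each of the 4 fold changes, from 0.118 to 0.14 on the log2 scale, missed the threshold.

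The glutathione peroxidases, the mitochondrial peroxiredoxin and cytosolic thioredoxin reductase passed no test. Gpx1, the abundant peroxidase of cytosol and mitochondria, ranged from 66.4 to 71.5 RPKM in untreated cells, from 66.4 to 75.3 with OHT, from 73.5 to 82.9 with IACS and from 74.4 to 79.2 with OHT_IACS. Its largest fold change was with IACS (0.144 on the log2 scale, 95% interval -0.022 to 0.309, limma adjusted p = 0.23). Gpx4, which reduces lipid peroxides in membranes, ranged from 35.7 to 43.4 RPKM over all 12 libraries, and its fold changes lay between -0.027 and 0.06. Txnrd1, the selenoenzyme that reduces thioredoxin with NADPH, ranged from 29.4 to 33.3 RPKM. Its fold changes lay between -0.019 and 0.036, and the 95% intervals of all 4 stayed within -0.122 to 0.139.

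Prdx3, the peroxiredoxin of the mitochondrial matrix, stood at 56.5, 54.1 and 54.7 RPKM in untreated cells and at 68.4, 56.6 and 68.8 with OHT. OHT replicates 1 and 3 were thus well above the untreated libraries and OHT replicate 2 was next to them. The log2 fold change was 0.202 (95% interval 0.029 to 0.375, limma adjusted p = 0.0641), and 4 of 24 alternatives called it, among them RPKM as deposited (0.224, limma adjusted p = 0.0194), limma voom (0.201, adjusted p = 0.0201) and the fit without OHT replicate 2 (0.305, limma adjusted p = 0.000988). With the library total as a covariate it was 0.016 (limma adjusted p = 0.815). With IACS it was 61.3, 58.2 and 61.9 RPKM and with OHT_IACS 63.6, 60.4 and 61.2, and no comparison passed the threshold.

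OHT replicates 1 and 3 were also the libraries with the smallest totals, and among the members the more abundant gained fewer reads with depth than proportion would give. The slope of log2 reads on log2 total within conditions was 1.19 for Cat, 1.25 for Gclc, 1.59 for Hmox1, 0.939 for Sod2 and 0.935 for Txnrd1, where 1 is proportional. The slope was between 0.466 and 0.691 for the 5 other members, Prdx3, Gpx4, Gpx1, Sod1 and Gclm, which had the most reads per base of the 10. The median slope of all genes tested went from 1.39 under 0.1 reads per base to 0.595 between 0.5 and 1. In OHT replicate 2, whose total was closest to those of the untreated libraries, Hmox1 (18.2 RPKM), Gclc (19.9), Sod2 (13.6) and Prdx3 (56.6) were above the untreated range, Cat (16.2) was below it, and Gpx1, Gpx4, Sod1, Txnrd1 and Gclm were within it. When the log2 total of a library was added to the fit, Cat, Gclc and Hmox1 kept their calls with OHT, and 3 further members, Gpx1, Sod1 and Gclm, passed the threshold as higher with OHT_IACS against OHT (0.102, 0.134 and 0.111 on the log2 scale, limma adjusted p = 0.00815, 0.0104 and 0.0157). Under this covariate Gpx1 also changed sign with OHT (-0.134, limma adjusted p = 0.00816).

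**Figure D4:**
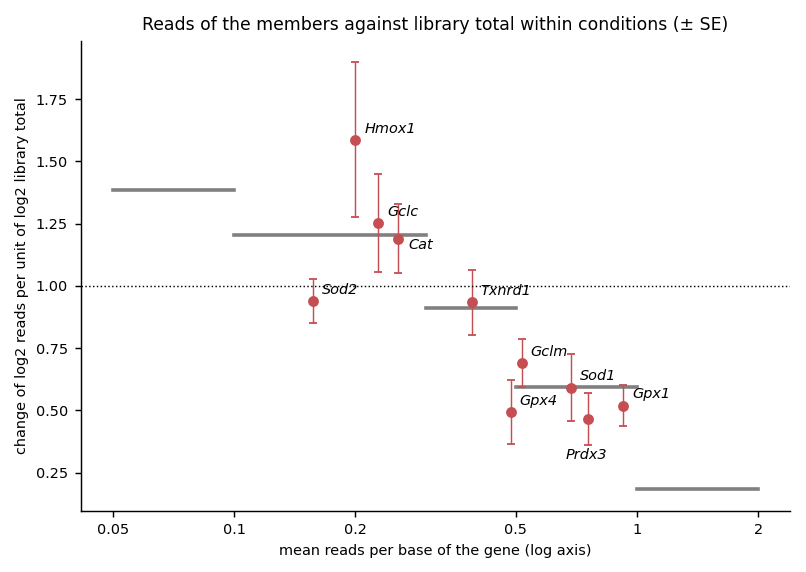
Change of log2 reads per unit of log2 library total within conditions (vertical axis, ± SE, dotted line at proportional) against the mean reads per base of the gene (horizontal log axis). Red points are the members and grey lines the medians of all genes tested in bins of reads per base, the first and last of which are open; Hmox1 lies at 1.59 and Prdx3 at 0.466.

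The genes most like each remaining member over the 12 libraries were named by Pearson r, with no test, since the points share conditions and library totals. They were Ifitm2 (r = 0.955) and Plac8 (0.943) for Gpx1, Rpl22l1 (0.975) and Ppp1r14b (0.971) for Gpx4, and Cd53 (0.951) and Atf4 (0.947) for Sod1. Sod2 was most like Ndufaf4 and Ube3a (both 0.987), Prdx3 most like Odc1 (0.98), the first enzyme of polyamine synthesis, and Kars (0.978), and Gclm most like Shmt2 (0.967), the mitochondrial serine hydroxymethyltransferase, and Gars (0.962). Gclc was most like Gfi1b (0.966) and Ddhd2 (0.962), and Hmox1 most like Btbd9 (0.964) and Csnk1e (0.961). Txnrd1, which varied least, had the lowest best match, Sub1 (0.858), followed by Trmt112 (0.814).

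Of the 21 other NRF2 targets tested, 12 rose and 3 fell with OHT, where 18.2% of all genes rose and 18.2% fell, with a median log2 fold change of 0.269 against 0.013 over all genes tested. With OHT_IACS against IACS 11 rose and 3 fell (median 0.232), where 12.3% of all genes rose and 14.2% fell. With IACS against untreated cells 2 rose and 2 fell, where 8.15% of all genes rose and 7.74% fell. With the library total as a covariate, 8 rose and 4 fell with OHT. The members of this list did not move alike. Slc7a11, the cystine carrier that feeds glutathione synthesis, rose in all 4 comparisons, most with IACS (log2 fold change 1.35, limma adjusted p = 7.79e-08) and with OHT_IACS against OHT (1.31, limma adjusted p = 1.01e-07), from 3.55 ± 0.23 RPKM in untreated cells to 11.7 ± 0.11 with OHT_IACS (SD, n = 3). Nqo1, the quinone reductase often used to read NRF2 activity, fell with OHT (-0.659, limma adjusted p = 6.14e-05) and rose with IACS (0.279, limma adjusted p = 0.0411) and with OHT_IACS against OHT (0.509, limma adjusted p = 0.00113), the same directions as Cat in these comparisons, but it was lower with OHT_IACS than with IACS (-0.428, limma adjusted p = 0.00235). Idh1, the cytosolic isocitrate dehydrogenase that makes NADPH, rose with OHT (0.391, limma adjusted p = 0.00434) and fell with IACS (-1.29, limma adjusted p = 7.64e-07).

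**Figure D5:**
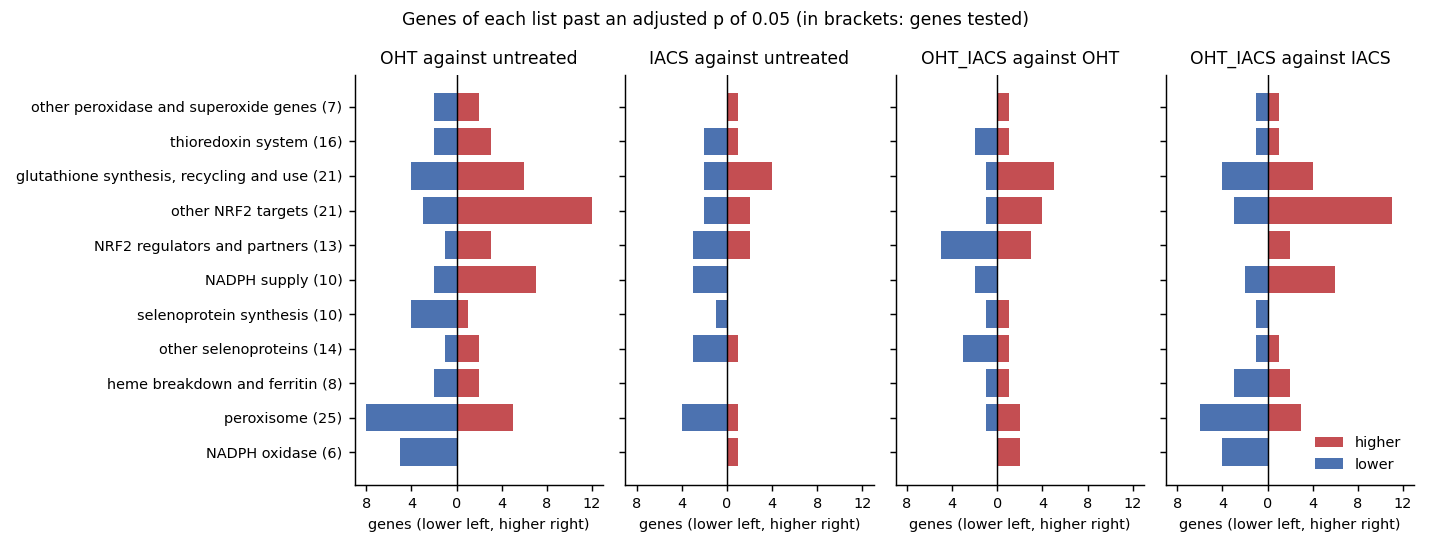
Number of genes of each list that passed an adjusted p of 0.05 (horizontal axis, lower to the left in blue, higher to the right in red) in the 4 comparisons, with the number tested in brackets. Lists share some genes; the bars of other NRF2 targets reach 12 higher and 3 lower with OHT, and those of the NADPH oxidase list 0 higher and 5 lower.

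Nfe2l2, which encodes NRF2, rose with OHT (log2 fold change 0.319, limma adjusted p = 7.38e-05) and fell with IACS (-0.161, limma adjusted p = 0.0204) and with OHT_IACS against OHT (-0.208, limma adjusted p = 0.00387). Its relative Nfe2l1 rose with IACS (0.494, limma adjusted p = 5.06e-05) and with OHT_IACS against OHT (0.51, limma adjusted p = 2.65e-05). Maff, a small MAF partner of NRF2, was at a median of 0.859 RPKM and passed the filter on low values only through its OHT libraries. Its mean was 1.71 RPKM with OHT, against 0.915 in untreated cells, 0.525 with IACS and 0.861 with OHT_IACS. Its call as higher with OHT (0.844, limma adjusted p = 0.022) is therefore no independent support. Of the 13 regulators and partners of NRF2 tested, 3 rose, Maff among them, and 1 fell with OHT, where 18.2% of all genes rose and 18.2% fell. With IACS 2 rose and 3 fell, where 8.15% of all genes rose and 7.74% fell.

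NADPH, which glutathione reductase and thioredoxin reductase consume, is supplied by a group of enzymes of which 7 of 10 rose and 2 fell with OHT, or 3 and 1 with the library total as a covariate. Me1, the cytosolic malic enzyme, was among the rises (log2 fold change 0.459, limma adjusted p = 0.00534) and H6pd, the hexose-6-phosphate dehydrogenase of the endoplasmic reticulum, among the falls (-0.605, limma adjusted p = 1.36e-06). With IACS none of the 10 rose and 3 fell, where 8.15% of all genes rose and 7.74% fell. At an unadjusted p under 0.05 in limma 2 were higher with IACS, and limma voom on the recovered reads called 1 higher. Of the NADPH oxidase list, whose enzymes make superoxide in leukocytes, 5 of 6 fell with OHT and none rose, also at an unadjusted p under 0.05 in limma and with limma voom. Of all genes, 18.2% rose and 18.2% fell with OHT. All 5 tested genes of the myeloid list fell too, the most being Hk3 (-2.07, limma adjusted p = 1.47e-09) and Lyz2 (-1.94, limma adjusted p = 3.53e-05), the latter at a median of only 0.903 RPKM. The part of these 5 genes in the oxidase counts was not tested. The oxidase genes that fell included Ncf1 (-0.805, limma adjusted p = 6.41e-07), Ncf4 (-0.704, limma adjusted p = 2.91e-06) and Cyba (-0.34, limma adjusted p = 0.00542). With OHT_IACS against OHT Ncf1 was among 2 that rose (0.51, limma adjusted p = 9.4e-05), where 11.9% of all genes rose.

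In the glutathione list, 6 of 21 genes rose and 4 fell with OHT, and 4 rose and 2 fell with IACS, against 18.2% of all genes in each direction with OHT and 8.15% higher and 7.74% lower with IACS. The median log2 fold change of the list with OHT was 0.006, against 0.013 over all genes tested. Mgst3, a microsomal glutathione transferase, fell with OHT (log2 fold change -0.982, limma adjusted p = 0.000122), and Gsta4 rose with OHT_IACS against OHT (1.41, limma adjusted p = 0.00387). In the thioredoxin system, 3 of 16 rose and 2 fell with OHT, a share no higher than the 36.4% of all genes that changed. Txnip, which binds and inhibits thioredoxin, rose with OHT (0.42, limma adjusted p = 3.51e-05) and fell with IACS (-0.344, limma adjusted p = 0.000626) and with OHT_IACS against OHT (-0.631, limma adjusted p = 3.05e-06). Sesn2, a sestrin, rose with IACS (0.634, limma adjusted p = 6.65e-05) and with OHT_IACS against OHT (0.834, limma adjusted p = 4.04e-06). Glrx, a glutaredoxin, fell with OHT (-0.323, limma adjusted p = 0.0126).

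Of the other peroxidase and superoxide genes, 2 of 7 rose and 2 fell with OHT, where 18.2% of all genes rose and 18.2% fell. Prdx1, the abundant cytosolic peroxiredoxin, was among the rises (log2 fold change 0.269, limma adjusted p = 0.044), although neither rise was past the threshold with the library total as a covariate. Msrb2, a mitochondrial methionine sulfoxide reductase, fell with OHT (-0.563, limma adjusted p = 0.00523), and Msra rose with IACS (0.497, limma adjusted p = 0.0106) and with OHT_IACS against OHT (0.471, limma adjusted p = 0.0105). In the list of heme breakdown and ferritin, 2 of 8 rose and 2 fell with OHT. None passed the threshold with IACS in either direction, where 8.15% of all genes rose and 7.74% fell. At an unadjusted p under 0.05 in limma 1 was higher and 1 lower with IACS, and limma voom called 1 higher. Fth1, the heavy chain of ferritin, rose with OHT (0.346, limma adjusted p = 0.0064), whereas Por, the reductase that passes electrons to heme oxygenase (-0.386, limma adjusted p = 0.0001), and the heme carrier Slc48a1 (-0.343, limma adjusted p = 6.26e-05) fell.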

How the data were processed

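RNA-seq libraries of 12 samples (4 conditions, 3 replicates each, grouped by their labels) were used. Per the submitters' processing notes, the tools included TopHat2 2.0.8, SAMtools, featureCounts 1.4.5-p1 and DESeq2, with the genome build mm9. The authors deposited RPKM for every gene in every library. The same deposited table holds log2 fold changes, computed by the authors with DESeq2 for OHT, IACS and OHT_IACS against untreated cells, which were not used. It also holds the adjusted p-values that the authors obtained in those comparisons, likewise not used. Reads were worked out from the steps of the RPKM, which were whole multiples of 1 read (tolerance 0.0001) for 15451 of 15451 genes above 0, and totals and reads per gene were recovered in this way.

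Each library was divided by its median ratio to the genes' geometric means. The filter on low values kept genes at or over an RPKM of 1 in 3 or more libraries, which were tested with limma 3.58.1 (R 4.3.3) on log2(RPKM + 0.1), two-sided, with a mean-variance trend, all 12 libraries in 1 fit and Benjamini-Hochberg adjustment over 9745 genes. The scale understates the change of genes with low values. The p-values measure the spread between replicates within conditions, estimated together over the 4 conditions. Among genes under 0.1 reads per base, this spread was above sampling noise in all 12 pairs of replicates (chi-square per gene 1.08 to 1.88). The members all had more reads per base, the lowest being Sod2 at 0.157, so this check did not cover them. Same-numbered replicates of different conditions did not deviate together and were not treated as pairs. The procedure was tested on simulated data. Named genes were the 10 members, up to 3 genes of each list with the largest changes past the threshold with OHT, with IACS or with OHT_IACS against OHT, and the 2 genes most correlated with each member. The members and lists were chosen with earlier results of these data known. Some genes of the marker lists are not reported here. Figures were drawn with matplotlib 3.10.9, and tables made with pandas 2.3.3.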

Additional observations from a re-analysis of the deposited data

Results flagged for a closer look

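The response of Cat to IACS-010759 differed between OHT-primed and nonprimed cells by 0.361 on the log2 scale (limma interaction term, adjusted p = 0.0445), being 0.608 in primed and 0.247 in nonprimed cells. In both, all 3 libraries with IACS-010759 were above all 3 without it. It was flagged because this test of a difference between the groups passed its threshold, and the adjusted p lay between 0.0261 and 0.243 over the 23 alternatives. Gzmb, which encodes granzyme B and had been placed in the myeloid list, moved in the same order of conditions. Gzmb, Hk3 and Cfp of that list passed the same interaction test as higher (1.05, 1.04 and 0.981, limma adjusted p = 6.7e-05, 0.00148 and 0.00346), where 0.144% of all genes did. The list was chosen with earlier results of these data known. Its other 8 genes summed to less with OHT_IACS (25.7 to 27.8 RPKM) than with IACS (33.7 to 40.2 RPKM), and to more than with OHT (18.0 to 21.3 RPKM). The part of these genes was not tested.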

How the results depend on the processing

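The alternatives were other pseudocounts (0.01 and 1), no filter or an RPKM of at least 5, RPKM as deposited, quantile normalization, the replicate block, the log2 library total as a covariate, both together, only the compared groups, no trend, limma voom on recovered reads, and each library left out. Of 1190 results of members under an alternative, 1140 kept their direction where called and their side of the threshold, 28 lost a call, 19 gained one and 3 reversed. The reversed ones were Gpx1 with OHT, at -0.115 with quantile normalization, -0.134 with the library total and -0.135 with the total and the block; among other named genes, Prdx1 with OHT was at -0.01 with the total and the block.

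Members called with OHT went from 4 to 2 (Gpx1 and Hmox1) with the total and the block, and from 3 to 6 with libraries left out. With OHT_IACS against OHT they went from 2 to 5 with quantile normalization, with the total, and with the total and the block, to 1 with only the compared groups, and from 1 to 3 with libraries left out: Sod2 lost its call without OHT replicate 1 (1 member called) and without OHT_IACS replicate 2 (1 member called). For the interaction, 0 members were called without a filter, with RPKM as deposited, with the block, with the total, with the total and the block and without the trend, and 0 or 1 with libraries left out. With OHT against untreated cells, Sod2 lost its call without untreated replicates 2 or 3 or OHT replicate 1, and Cat against IACS without IACS replicate 2. With the replicate block alone, 5 members were called with OHT (Prdx3 in addition), and it changed no other call of members but that of the interaction. The causes were not tested.

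Of all genes, 3546 were called with OHT, 2351 with the total and 1663 with the total and the block. With IACS against untreated cells 1548 were, 951 when untreated replicate 1 was left out, 998 for untreated replicate 2 and 1026 for IACS replicate 3; RPKM as deposited gave 867 higher and 469 lower, against 794 and 754. With OHT_IACS against OHT 2310 were, and 1524 without OHT_IACS replicate 3. The 14 of the interaction, all higher, ranged from 3 to 34 over the settings and from 3 to 130 with libraries left out, 29 higher and 5 lower with quantile normalization.

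The number of reads limits Hmox1 most, with 224 reads at its lowest, in untreated replicate 1. The abundant members are limited through reads that level off with the library total.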

Other observations

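Gpx1, Gpx4 and Txnrd1 are selenoproteins. Of the 10 genes of selenoprotein synthesis tested, 1 rose and 4 fell with OHT (median log2 fold change -0.169, against 0.013 over all genes tested, of which 18.2% rose and 18.2% fell), and 1 rose and 1 fell with the library total as a covariate. Eefsec, the elongation factor that brings selenocysteine to the ribosome, fell (-0.338, limma adjusted p = 7.44e-05), as did Trnau1ap (-0.376, limma adjusted p = 0.0267), and Sephs2, which makes selenophosphate, rose (0.284, limma adjusted p = 0.00864). Of 14 other selenoprotein genes, 2 rose and 1 fell with OHT, and 1 rose and 3 fell with IACS. With IACS 8.15% of all genes rose and 7.74% fell. Sepw1 rose with IACS (0.372, limma adjusted p = 0.00171) and with OHT_IACS against OHT (0.52, limma adjusted p = 0.000103), Selm fell with IACS (-0.577, limma adjusted p = 0.0211), and Ept1 rose with OHT (0.423, limma adjusted p = 2.64e-05).

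Catalase resides in peroxisomes. Of 25 other peroxisome genes tested 5 rose and 8 fell with OHT, where 18.2% of all genes rose and 18.2% fell. Their median log2 fold change was -0.104, against 0.013 over all genes tested. With the library total as a covariate 2 rose and 3 fell with OHT. With IACS 1 rose and 4 fell, where 8.15% of all genes rose and 7.74% fell. With OHT_IACS against OHT, where Cat rose, 2 rose and 1 fell, where 11.9% of all genes rose and 11.8% fell. Pex11a, which promotes peroxisome division, rose with OHT (1.39, limma adjusted p = 0.000334), Acox3, an acyl-CoA oxidase, fell with OHT (-0.494, limma adjusted p = 0.00951) and rose with OHT_IACS against OHT (0.576, limma adjusted p = 0.00671), and Pex11g rose with OHT_IACS against OHT (0.713, limma adjusted p = 0.0211).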
